A study of Mus musculus with 11 samples.

Results

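Early thymic precursors (ETP) and double negative 2 cells (DN2) are the first populations of the T cell path in the thymus, and they made up 3 of the 11 arrays of the study, 2 of ETP and 1 of DN2. They were set against the 8 arrays of the populations before and after them: HSC, the hematopoietic stem cells, LMPP, multipotent progenitors already primed towards lymphoid fates, and CLP, the progenitors common to lymphocytes, all of bone marrow, and double negative 3 cells (DN3) of thymus, with 2 arrays of each. Tissue follows the tissue label and the study's design; the description field of ETP, DN2 and DN3 gives bone marrow instead. The arrays were chosen by the population that their labels name, with no measured value in the choice. All cells came from C57BL/6J mice, and the labels used here give no age, sex, treatment or sorting gate. Total RNA was labelled with biotin and hybridised to Affymetrix whole-transcript arrays, and each value is a log2 intensity that the authors made by RMA, so that 1 unit is a 2-fold change. The comparison asked which genes are transient at the early thymic stages, that is high in ETP and DN2, low in marrow and low again in DN3.

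ETP are seeded from blood-borne progenitors of marrow and still hold some potential for other blood lineages. Signals through Notch in the thymus turn on the first T lineage genes, and the cells pass through DN2, where the interleukin-2 receptor alpha chain (Il2ra) appears and stem cell factor receptor (Kit) is still present. Commitment to the T lineage is completed between DN2 and DN3, when progenitor genes are shut off and the T cell receptor beta locus is rearranged. Genes that are on only in this window are of interest as possible marks of cells that have entered the thymus before commitment is complete.

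The deposited table gave 19938 genes with a probe set of their own. The array medians lay between 6.01 and 6.12, and precision is limited by how few arrays there were. The labels do not say whether replicate arrays came from separate animals, so p-values measure only the spread between these arrays, which may be technical. DN2 had 1 array, whose spread was taken to equal the pooled spread of the rest. A background level was set on each array at the 95th percentile of 1190 olfactory and vomeronasal receptor genes, most of which are silent in blood cells, and it lay between 5.68 and 5.93. Since each array holds RNA from a pool of sorted cells, fewer cells that express a gene and less RNA per cell cannot be told apart.

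A gene was taken to peak in ETP and DN2 when the mean of the 3 arrays lay above each of the 4 other populations, when all 3 arrays lay above all 8, and when the largest of the 4 limma p-values passed 0.05 after Benjamini-Hochberg adjustment over all genes. In all, 18 genes met this rule, 0.0903% of the genes tested. They were Olfr649, Olfr648, Scin, Fasl, Olfm5, Cd7, Cd160, Serpinb6b, I830077J02Rik, Ubqlnl, Chn2, Bpifc, Zfp760, Deptor, Il31ra, Pdgfrb, Mcoln3 and Trim55, in falling order of their difference from the other populations. Each had 1 probe set. Their differences from the mean of the other populations ran from 0.96 to 3.90 log2 units, and their margins over the highest other population from 0.92 to 3.68, which is 1.89-fold to 12.8-fold. They are taken in an order chosen after their values were seen: 4 neighbours on chromosome 7, then Fasl, Cd160, Cd7 and Serpinb6b, and the remaining genes.

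RefSeq held upstream windows for 13 of the 18 genes. Those of Olfm5, Olfr648, Olfr649, Fasl and Cd160 are shown because these genes passed the peak test in all 11 fits that left out 1 array, each as the 250 bases before an annotated start on GRCm38.p6, 5′ to 3′ on the gene's strand. Capitals mark matches, on either strand, to the core motifs named below.
Olfm5, chr7:104164817-104165066, minus strand: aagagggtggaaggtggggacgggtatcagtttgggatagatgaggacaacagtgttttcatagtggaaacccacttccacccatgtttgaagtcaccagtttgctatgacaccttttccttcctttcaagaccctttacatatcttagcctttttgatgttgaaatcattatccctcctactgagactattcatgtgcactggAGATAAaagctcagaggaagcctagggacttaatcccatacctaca
Olfr648, chr7:104180407-104180656, minus strand: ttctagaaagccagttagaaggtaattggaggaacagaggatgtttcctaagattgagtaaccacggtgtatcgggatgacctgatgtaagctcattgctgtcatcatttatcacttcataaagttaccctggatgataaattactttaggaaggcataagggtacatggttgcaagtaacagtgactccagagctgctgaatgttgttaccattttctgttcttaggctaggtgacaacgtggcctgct
Olfr649, chr7:104190206-104190455, minus strand: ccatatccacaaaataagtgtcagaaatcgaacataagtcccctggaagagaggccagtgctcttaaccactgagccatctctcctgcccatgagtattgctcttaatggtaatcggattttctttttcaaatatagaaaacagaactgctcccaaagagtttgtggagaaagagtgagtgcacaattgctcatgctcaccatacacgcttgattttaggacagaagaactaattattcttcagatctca
Fasl, chr1:161788496-161788745, minus strand: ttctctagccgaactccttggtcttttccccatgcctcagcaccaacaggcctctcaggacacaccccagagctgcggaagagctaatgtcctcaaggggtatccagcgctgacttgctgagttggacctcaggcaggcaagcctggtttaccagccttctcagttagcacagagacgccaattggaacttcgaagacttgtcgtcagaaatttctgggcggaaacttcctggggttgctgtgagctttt
Cd160, start 1, chr3:96829352-96829601, minus strand: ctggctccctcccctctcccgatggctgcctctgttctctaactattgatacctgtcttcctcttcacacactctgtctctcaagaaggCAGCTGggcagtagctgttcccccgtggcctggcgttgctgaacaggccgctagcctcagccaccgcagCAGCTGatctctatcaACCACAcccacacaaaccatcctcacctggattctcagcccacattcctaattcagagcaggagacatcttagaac
Cd160, start 2, chr3:96814522-96814771, minus strand: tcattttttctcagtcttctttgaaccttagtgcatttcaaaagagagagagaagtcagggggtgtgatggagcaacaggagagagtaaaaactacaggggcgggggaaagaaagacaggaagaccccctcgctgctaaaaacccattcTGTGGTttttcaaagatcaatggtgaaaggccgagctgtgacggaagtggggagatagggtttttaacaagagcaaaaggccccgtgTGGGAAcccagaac

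Core motifs of 6 factors or families were searched on both strands, in these and in 32851 windows of the same length. The percentages are of windows and the counts are of genes. A gene with several windows, such as Cd160, had more chances of a match, so percentages and counts cannot be compared directly. The GATA motif was taken as AGATAA, which was in 9.99% of all windows and in those of 3 of the 13 genes, Bpifc, Chn2 and Olfm5. For RBPJ, the DNA-binding partner of Notch, TGGGAA was in 21.6% of all windows and in those of Cd160 and Serpinb6b. For the RUNX factors, TGTGGT was in 14% of all windows and in those of Cd160 and I830077J02Rik. The E-box searched was CAGCTG, present in 13% of all windows and in those of Cd160, Chn2 and Mcoln3. For PU.1, GAGGAAGT was in 2.44% of all windows and in those of Chn2, I830077J02Rik and Mcoln3. For the TCF factors, CTTTGAT was in 3.21% of all windows and in none of the 13 genes. The windows of Olfr648, Olfr649 and Fasl held none of these letters, and the longest run of bases that the windows of Olfr648 and Olfr649 share was 7 bases. The RefSeq models of Olfr648 and Olfr649 are 951 and 939 bases long, about the length of a receptor's coding sequence, so their windows may not lie at the start of transcription.

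The largest transient signal came from chromosome 7, where Ubqlnl, Olfm5, Olfr648 and Olfr649 are next to each other among the measured genes, with 1 unmeasured RefSeq gene between Olfm5 and Olfr648, and all 4 peaked in ETP and DN2. Olfr648 and Olfr649 encode odorant receptors, Olfm5 a protein with an olfactomedin domain and Ubqlnl a relative of the ubiquilins, which bind ubiquitin. The odorant receptors and I830077J02Rik fall in classes that the rule for naming genes left out, and they are named here after their values were seen. Olfr648 and Olfr649 also belong to the 1190 genes that set the background level.

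Olfr649 had values of 8.94 and 8.12 in ETP and 8.49 in DN2, against 4.34 to 5.0 with a median of 4.57 on the 8 other arrays. Every other array lay below the background level and all 3 ETP and DN2 arrays lay far above it. The means were 8.52 ± 0.41 in ETP and DN2 (SD, n = 3) and 4.62 ± 0.25 in the other populations (n = 8), a difference of 3.90 with a standard error of 0.17 in limma, or 14.9-fold (adjusted p = 4.56e-05 for the peak). Olfr648 had 7.71 and 7.44 in ETP and 7.56 in DN2, against 3.71 to 4.43 with a median of 4.12 on the other arrays. It was likewise below background on all 8, with a difference of 3.47 ± 0.13 (SE), 11.1-fold. Olfm5 had 8.80 and 8.68 in ETP and 9.51 in DN2, against 5.64 to 6.27 with a median of 6.00. Its other arrays lay around the background level, 1 of them below it, and the difference was 3.01 ± 0.11 (SE), 8.03-fold. Ubqlnl had 6.28 and 7.14 in ETP and 6.85 in DN2, against 4.89 to 5.44 with a median of 5.09, all 8 below background. Its difference was 1.67 ± 0.15 (SE), and its peak lay nearer the threshold (limma adjusted p = 0.0311 for the peak). All folds here are ratios of intensity, and where the lower group is at background they understate any change in RNA.

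Most genes of the surrounding receptor cluster were not called. Between Olfr638 and Olfr656 RefSeq lists 44 genes, of which 27 were measured. In ETP and DN2 against the other populations 8 were called higher, none lower, and 19 were not called. Over all genes 2.3% were called higher. The stretch was chosen around the 4 peak genes and counts them, so its share cannot be compared with that over all genes. Beside the 4 peak genes the calls were Olfr643 (difference 0.43), Olfr644 (1.02), Trim6 (0.68) and Trim34a (0.63), the Trim genes being of a family of ubiquitin ligases with roles in antiviral defence. Olfr643 stayed below the background level on all 11 arrays, with 4.40 and 4.28 in ETP and 4.20 in DN2 against 3.75 to 3.98 elsewhere. Olfr645, Olfr646 and Ubqln5, which lie between Olfr644 and Ubqlnl, were not called; Olfr645 differed by -0.04 and Olfr646 by 0.19, and Ubqln5 averaged 5.45 in ETP and DN2 and 5.45 in the others. Over the genome 1027 odorant receptor genes were measured, of which 5 were called higher (0.487%) and 1 lower, with a median difference of -0.04 against -0.01 for all genes.

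**Figure D1:**
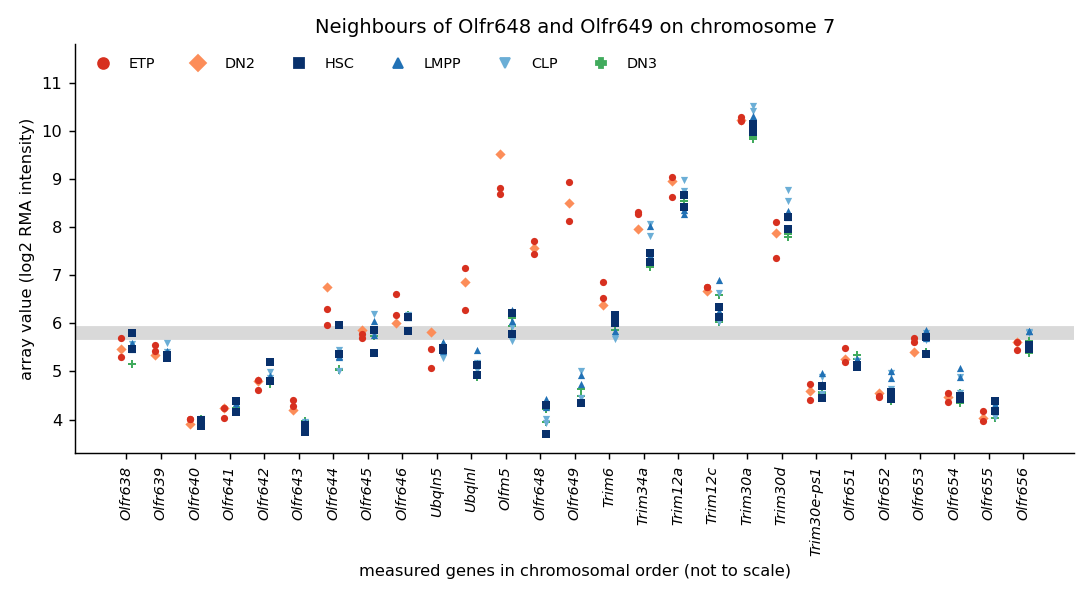
Values of the 27 measured genes between Olfr638 and Olfr656 on chromosome 7 on each of the 11 arrays (log2 RMA intensity), in chromosomal order with equal spacing; ETP and DN2 arrays are drawn left of the other populations for each gene, and the grey band is the range of the background level, 5.68 to 5.93. Olfm5, Olfr648 and Olfr649 separate by 2.84 to 3.68 log2 units from the highest other population, and Ubqlnl by 1.45, while most genes on either side overlap.

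Of the next 4 genes, Fasl and Cd160 belong to the list of innate lymphoid and natural killer genes, and Cd7 and Serpinb6b do not. Fasl, the ligand of the death receptor Fas, which natural killer cells and cytotoxic T cells use to kill target cells, had 7.94 and 8.03 in ETP and 6.69 in DN2, against 3.88 to 4.36 with a median of 4.21 on the 8 other arrays. It was below background in every other population, DN3 included, and the lowest ETP or DN2 array, DN2, stood clear of all 8. The difference was 3.36 ± 0.10 (SE), 10.2-fold, and Fasl had the smallest p of all genes for the peak (adjusted p = 4.71e-06). DN2 was 1.29 below the ETP mean (limma adjusted p = 0.00755). Fasl belongs to the TNF superfamily. Of 26 of its ligands and receptors measured, 4 were called higher (Fasl, Tnfsf10, Ltb and Cd27) and 1 lower (Tnfrsf13c). The shares over all genes were 2.3% higher and 1.33% lower. The median difference of these 26 was 0.09, and Fasl was the only 1 of them to peak. Tnfsf10, the death ligand TRAIL, had 7.24 and 7.54 in ETP and 8.16 in DN2, against 6.44 to 7.23, a difference of 0.81, with ETP and DN2 just above the rest.

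Cd160, a receptor of natural killer and cytotoxic T cells, had 7.23 and 7.69 in ETP and 7.28 in DN2, against 4.80 to 5.90 with a median of 5.08. The marrow arrays were all at 5.14 or lower, and the DN3 arrays were the highest of the rest at 5.62 and 5.90. The difference was 2.18 ± 0.11 (SE), 4.54-fold, with 5.15-fold against marrow and 3.11-fold against DN3. Cd7, a surface protein of early T and natural killer cells, had 8.81 and 9.33 in ETP and 7.42 in DN2, against 5.72 to 6.84 with a median of 6.33. Its difference was 2.23 ± 0.13 (SE), 4.68-fold, and it was highest in ETP, with DN2 1.66 below the ETP mean (adjusted p = 0.0063). Serpinb6b, an intracellular inhibitor of serine proteases, had 9.66 and 10.12 in ETP and 8.64 in DN2, against 6.48 to 8.17 with a median of 7.55. It was well above background everywhere, lowest in CLP and next highest in DN3, and its difference was 2.01 ± 0.12 (SE), 4.02-fold; DN2 was 1.24 below the ETP mean (adjusted p = 0.0229).

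The list that holds Fasl and Cd160 has 30 innate lymphoid and natural killer genes, with a median difference of 0.08. Of the 28 measured, 8 were called higher and 1 lower, against 2.3% and 1.33% of all genes. The other 6 that rose did so with different profiles. Gzmb, the protease granzyme B, had 5.83 and 6.73 in ETP and 6.34 in DN2 against 4.97 to 5.64, and lay below background on all 8 other arrays; its difference was 1.02, and it missed the peak test (adjusted p = 1.0 for the peak). Gzma, granzyme A, was highest in DN3, with 6.52 and 7.66 in ETP, 9.53 in DN2, 11.16 and 11.21 in DN3, and 4.82 to 5.87 in marrow. Klrd1, the CD94 receptor chain, had 7.34 and 7.73 in ETP but 4.66 in DN2, and was highest in CLP at 8.70 and 8.17. Nkg7, a granule protein, had 10.27 and 10.59 in ETP and 10.24 in DN2 against 8.2 to 10.02, a difference of 1.31. The adaptor Tyrobp (difference 1.61) and the transcription factor Id2 (0.83) also rose, and Nfil3, a factor needed for innate lymphoid cells, fell by 0.54. Of the 7 markers of natural killer and innate lymphoid cells, Klrb1c, Ncr1, Eomes and Zbtb16 were below background on all 3 ETP and DN2 arrays, and the mean level of the 7 ran from 5.46 to 5.68 there and from 4.96 to 5.68 on the other arrays. Tbx21 was above background on all 11 arrays, at 6.20, 6.14 and 5.94 in ETP and DN2 against 5.86 to 6.23 elsewhere. Gzma was also above background on all 3 ETP and DN2 arrays, and Klrd1 on both ETP arrays.

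The remaining peak genes code for receptors, signalling proteins and structural proteins. Scin, scinderin, a calcium-dependent protein that severs actin filaments, had 8.33 and 8.94 in ETP and 9.96 in DN2, against 4.63 to 5.38 on the 6 marrow arrays and 7.25 and 7.82 in DN3. It was thus off in marrow but lower, not off, in DN3: 16.2-fold above marrow and 2.91-fold above DN3. I830077J02Rik, a gene without an assigned name, had 9.37 and 9.82 in ETP and 9.40 in DN2, against 7.19 to 8.33, a difference of 1.88 ± 0.10 (SE). Chn2, beta-chimaerin, which switches off the GTPase Rac, had 8.68 and 8.27 in ETP and 8.11 in DN2, against 6.11 to 7.12, with its lowest values in DN3. Its difference was 1.67 ± 0.10 (SE), 3.18-fold. Deptor, an inhibitor bound to the mTOR kinase, had 8.07 and 7.73 in ETP and 7.92 in DN2, against 6.13 to 7.09, with HSC next highest; the difference was 1.39.

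Among receptors and channels, Il31ra, a chain of the interleukin-31 receptor, had 7.17 and 7.09 in ETP and 6.52 in DN2, against 5.28 to 6.00, with both CLP arrays next below. Pdgfrb, the beta receptor for platelet-derived growth factor, a marker of mesenchymal cells, had 7.82 and 7.42 in ETP and 7.11 in DN2, against 6.21 to 6.54. Of 6 thymic epithelial and stromal markers, 4 (Epcam, Psmb11, Pdgfra and Cdh5) were below background on all 3 ETP and DN2 arrays, and Col1a1 was at 7.09, 6.99 and 7.04 there against 6.93 to 7.15 elsewhere. The other marker, Krt8, was above background on all 11 arrays, at 6.84, 6.69 and 6.71 in ETP and DN2 against 6.36 to 7.22 elsewhere. Mcoln3, a cation channel of endosomes and lysosomes, had 6.57 and 6.80 in ETP and 6.72 in DN2, against 5.46 to 5.77. The differences of Il31ra, Pdgfrb and Mcoln3 were 1.39, 1.07 and 1.06. Bpifc, a member of a family of lipid-binding proteins, had 6.84 and 7.12 in ETP and 8.08 in DN2 against 5.18 to 6.08, and Zfp760, a zinc finger protein, 9.65 and 9.97 in ETP and 9.09 in DN2 against 7.64 to 8.60. Both differed by 1.60. Trim55, a ubiquitin ligase of striated muscle, was the weakest, with 5.87 and 5.63 in ETP and 5.84 in DN2 against 4.63 to 4.96, close to the background level itself.

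**Figure D2:**
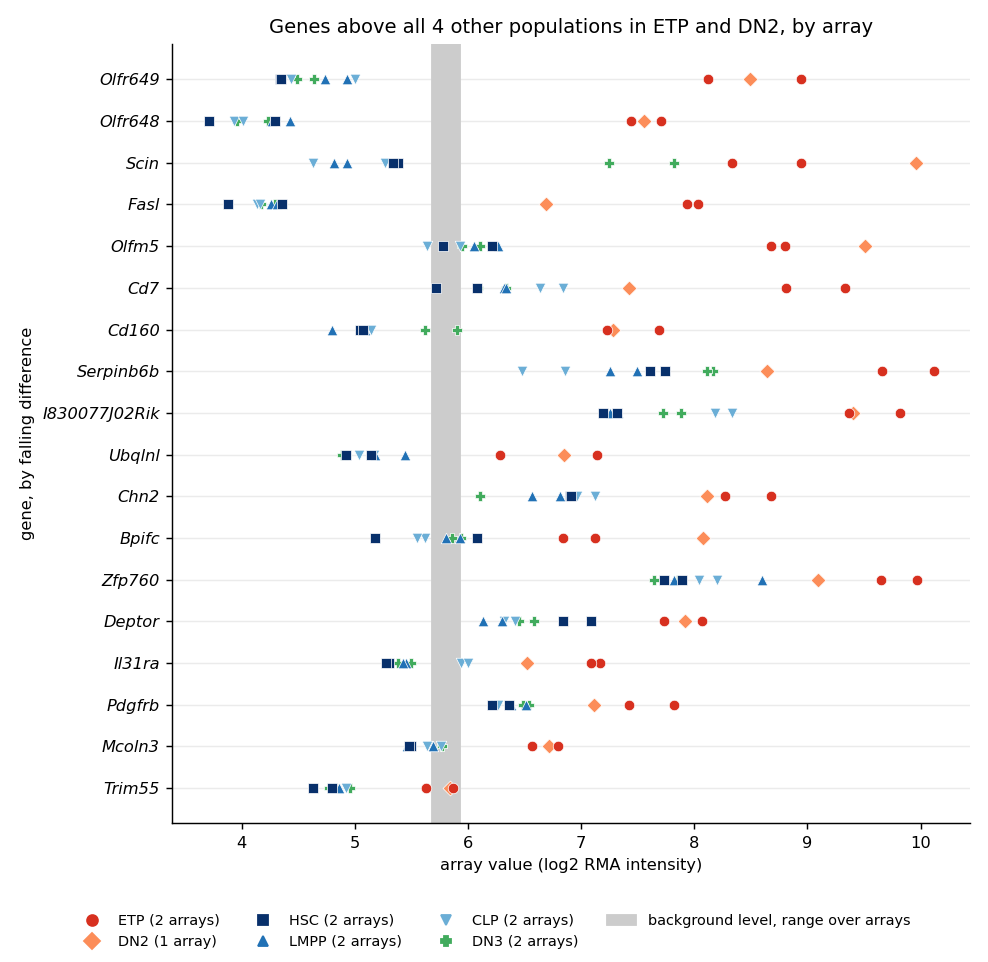
Array values (log2 RMA intensity, x axis) of the 18 genes that peaked in ETP and DN2 (y axis, by falling difference), 1 symbol per array; the grey band is the range of the background level. In every row the 3 ETP and DN2 symbols lie right of the 8 others; the gap is widest for Olfr649, Olfr648, Fasl and Olfm5, and in Scin and Serpinb6b the DN3 arrays come closest.

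How firmly the 18 hold differed between them. Bpifc, Scin and Zfp760 were the last inside the threshold (adjusted p = 0.0393, 0.0394 and 0.0394), and Trim13, Pde7a and Atp8b4 the next outside it (0.0626, 0.0762 and 0.0819). Atp8b4, a phospholipid flippase, had 10.15 and 10.17 in ETP and 10.21 in DN2 against 8.59 to 9.56, so genes outside the threshold could show a similar separation. At an unadjusted p under 0.05, 119 genes had this pattern. When ETP and DN2 each had to exceed each of the other 4 populations, in 8 contrasts, only Fasl, Olfm5, Olfr648 and Olfr649 passed. With 1 array left out in turn, 6 of the 18 passed in all 11 fits (Olfr649, Olfr648, Fasl, Olfm5, Cd7 and Cd160). Leaving out a CLP array gave 7 genes for replicate 1 and 10 for replicate 2; the count was 10 and 9 without DN3 replicate 1 or 2, 11 without LMPP replicate 1, and 37 without the DN2 array, when the rule tests ETP alone.

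Few genes were off by the background level outside ETP and DN2. Over all genes, 10 (0.0502%) were below background on all 8 other arrays and above it on all 3: Olfr649, Olfr648, Fasl and Ubqlnl of the peak genes, and Capns2, Gzmb, Gm9920, Nxpe5, Lilrb4a and Nrarp. All 10 were called higher in the 3-against-8 comparison. These genes were read off a threshold on the same arrays and named after their values were seen, so the calls add no support. Capns2, a calpain subunit, had 6.44 and 6.06 in ETP and 6.09 in DN2 against 4.85 to 5.52. Nrarp, a feedback inhibitor that Notch itself induces, moved little, with 5.95 and 5.93 in ETP and 5.77 in DN2 against 5.20 to 5.69, so it crossed the level by a small step. Of the other peak genes, Trim55 was also below background on all 8 other arrays, but ETP replicate 2 was below it too. A further 7 were above background on all 8, and the remaining 6 were below it on some of the 8 and above it on others.

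A further 5 genes passed the peak test on their means but were high in ETP only, with DN2 among the other arrays: H2-Aa, Mcpt1, Mcpt2, Nostrin and Prg3. H2-Aa, a chain of MHC class II, had 9.14 and 9.59 in ETP but 6.02 in DN2, against 5.01 to 6.25 in the other populations. Mcpt1, a mast cell protease, had 5.92 and 7.08 in ETP but 3.82 in DN2, against 3.50 to 3.84, and Mcpt2 followed it with 5.70 and 6.76 in ETP and 3.71 in DN2, against 3.57 to 3.78. Mcpt1 and Mcpt2 are closely related in sequence. Prg3, a granule protein of eosinophils, had 7.78 and 7.53 in ETP and 5.79 in DN2, against 5.55 to 5.98. Nostrin, a regulator of nitric oxide synthase, had 6.10 and 5.84 in ETP and 4.34 in DN2, against 4.09 to 4.58. Of the 18 peak genes, DN2 lay above the ETP mean in 7 and below it in 11, and the difference passed only for Fasl, Cd7 and Serpinb6b; over all genes 199 (0.998%) were called between DN2 and ETP.

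In the wider comparison, the mean of the 3 arrays against the mean of the other 4 populations, 724 genes were called at a limma adjusted p under 0.05 (3.63%), 458 higher (2.3%) and 266 lower (1.33%) in ETP and DN2; 97 of the higher and 35 of the lower changed at least 2-fold. This test uses the spread between arrays of 1 population, so a gene far from the mean in 1 population alone can pass. A fit of 2 groups of 3 and 8 arrays, whose spread includes the differences between populations, called 24 genes, all higher, among them 16 of the 18 peak genes (all but Scin and Serpinb6b); none was lower in that limma fit, against 512 lower at an unadjusted p under 0.05. Of the gene lists, that fit called 2 innate lymphoid and natural killer genes and 1 gene each of the T cell receptor, TNF superfamily and macrophage and stromal lists, and none of any other list. The 724 became 403 without ETP replicate 1, 388 without ETP replicate 2 and 480 without DN3 replicate 2. Among the 458, all 3 arrays exceeded all 8 in 141, both ETP arrays but not DN2 in 118, DN2 but not both ETP arrays in 75, and neither in 124. DN2 was itself called below ETP in 59 of them and above ETP in 18. Over all genes, all 3 arrays lay above all 8 in 262 (1.31%) and below all 8 in 161 (0.808%).

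The comparison was then split into its steps, ETP and DN2 against marrow and ETP and DN2 against DN3, which share the 3 arrays. Against marrow 1053 genes were called (5.28%), 614 higher (3.08%) and 439 lower (2.2%). Against DN3 1193 were called (5.98%), 706 higher (3.54%) and 487 lower (2.44%). Genes above both numbered 158 (0.792%) and genes below both 27 (0.135%). Of the 458 higher genes 363 were called above marrow and 249 above DN3, and 19 were called below DN3. Of the 266 lower genes 228 were called below marrow and 64 below DN3, and 25 were called above DN3. The count against marrow was 674 without the DN2 array, and that against DN3 was 632 and 598 without DN3 replicate 1 or 2 and 759 and 762 without ETP replicate 1 or 2.

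Outside the peak genes, some genes with large differences were shared with DN3 and others with marrow. Il2ra had 6.96 and 7.68 in ETP and 11.40 in DN2, with 4.07 to 4.49 in marrow and 11.30 and 11.23 in DN3, so it was 4.35 log2 units above marrow and 2.59 below DN3. Cd3g, the CD3 gamma chain that signals for the T cell receptor, had 6.68 and 8.45 in ETP and 11.21 in DN2, with 4.51 to 4.97 in marrow and 12.43 and 12.38 in DN3. Hes1, a target gene of Notch, had 8.19 and 8.27 in ETP and 8.24 in DN2, with 5.72 to 6.72 in marrow and 8.44 and 8.36 in DN3, so that all 3 thymic populations were above marrow. On the other side, Cd34, a surface sialomucin of progenitors, had 10.92 and 11.17 in ETP and 9.32 in DN2, with 9.65 to 11.24 in marrow but 5.39 and 5.78 in DN3. Hhex, a homeobox factor of progenitors, followed it with 10.47 and 10.51 in ETP and 9.65 in DN2, 9.59 to 10.36 in marrow, and 6.06 and 5.90 in DN3. Both were called higher against the mean of the 4 populations and against DN3, but not against marrow, where Cd34 differed by 0.11 (adjusted p = 0.747) and Hhex by 0.22 (adjusted p = 0.344).

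**Figure D3:**
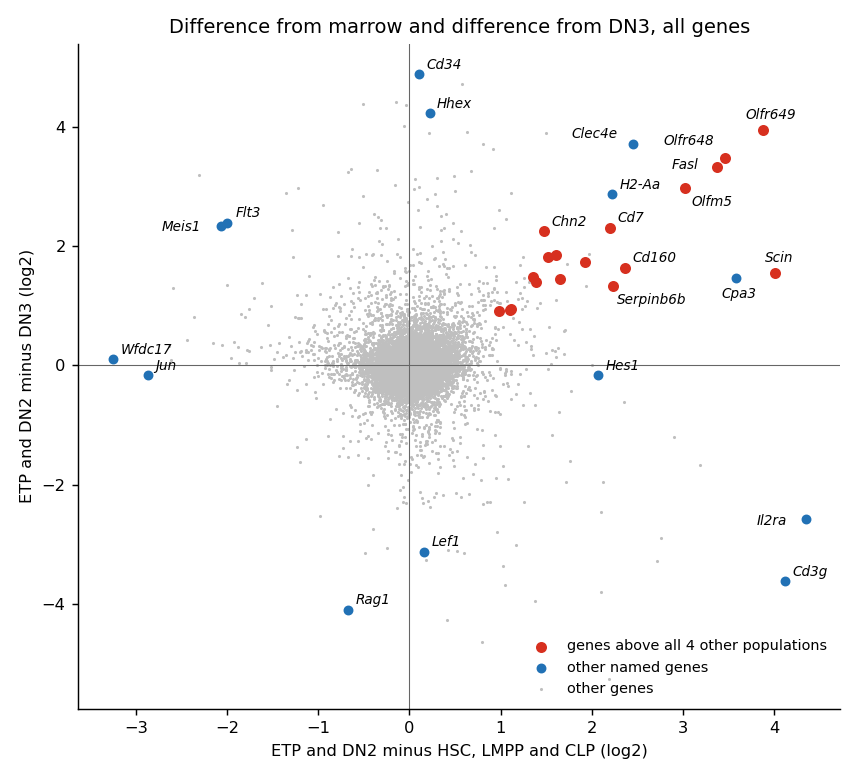
Difference of ETP and DN2 from marrow (x axis, log2) and from DN3 (y axis, log2) for all 19938 genes; the 18 peak genes are red and other named genes blue. The peak genes lie at the upper right, above both; Il2ra and Cd3g lie at the lower right, above marrow and below DN3, and Cd34 and Hhex at the top, level with marrow and above DN3. The axes share the ETP and DN2 arrays, so part of any alignment is built in.

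Genes of the T cell receptor complex and its signalling were split by the same steps. Of 26 measured, 8 were called higher and 2 lower in the comparison with all others, against 2.3% and 1.33% of all genes. The median difference was 0.09. In the step from marrow 12 rose and none fell, against 3.08% and 2.2% of all genes. Relative to DN3 2 were higher and 17 lower, against 3.54% and 2.44%. Trat1, an adaptor of the receptor, had 6.31 and 7.25 in ETP and 9.30 in DN2, with 3.78 to 5.14 in marrow and 9.15 and 9.43 in DN3. Thy1, Lcp2, Lat, Cd5, Cd27 and the peak gene Cd7 also rose, while Cd3e and Cd28 fell relative to the mean of the others, with DN3 highest in both. Cd3e was at 6.26 and 6.24 in ETP and 7.07 in DN2 against 9.64 and 9.59 in DN3 and 5.88 to 6.32 in marrow. Without the DN2 array 4 rose and 3 fell. Of 19 measured Notch-responsive genes 5 rose (Hes1, Nrarp, Il2ra, Cd3g and Gata3) and 1, Myc, fell by 0.42. Of 26 early T lineage regulators 4 rose (Gata3, Hes1, Tox and Ikzf2) and 3 fell (Ets2, Lef1 and Id3), and none peaked. Gata3 had 7.22 and 6.67 in ETP and 7.82 in DN2, with 5.04 to 6.15 in marrow and 7.85 and 8.19 in DN3. Lef1, a partner of beta-catenin, was high in DN3 alone, with 6.25 and 6.11 in ETP and 6.59 in DN2, 5.93 to 6.29 in marrow, and 9.31 and 9.57 in DN3. Tcf7 and Lck had no probe set of their own in the annotation and were not analysed here.

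Cytokine receptors and homing receptors moved in both directions, against 2.3% of all genes called higher and 1.33% called lower. Of 28 measured cytokine receptors 6 rose (Il2ra, Il17rb, Il12rb2, Kit, Il4ra and Csf1r) and 3 fell (Flt3, Csf3r and Il7r); 3 rose without ETP replicate 1 and 4 without ETP replicate 2. Il17rb, a receptor chain for interleukin-25, had 7.98 and 7.90 in ETP and 10.08 in DN2, with 5.84 to 6.75 in marrow and 9.28 and 9.27 in DN3. Kit had 9.50 and 9.23 in ETP and 9.24 in DN2, within the HSC and LMPP range of 9.10 to 9.83, and 7.20 and 6.84 in DN3. Flt3, the receptor that marks multipotent and lymphoid progenitors, had 8.55 and 8.66 in ETP but 5.23 in DN2, against 7.13 to 10.75 in marrow and 5.19 and 4.99 in DN3; its difference of -0.90 turned to 0.22 without the DN2 array (adjusted p = 0.496). Of 25 homing and adhesion genes 4 rose (Cd34, Ccr2, Itga4 and Cd44) and 1, S1pr1, fell.

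Granule and myeloid genes made up another group, and in most of them ETP was higher than DN2. The shares over all genes were 2.3% called higher and 1.33% called lower. Of 22 measured neutrophil granule and monocyte genes 8 rose and 2 fell, with a median difference of 0.15; 4 rose without either ETP array. Clec4e, a lectin receptor of myeloid cells, had 8.68 and 9.45 in ETP and 8.66 in DN2, against 4.94 to 7.83, highest in HSC; its difference was 2.77, and it stood above all 8 arrays but missed the peak test (adjusted p = 0.637 for the peak). S100a8 had 8.05 and 8.50 in ETP but 6.33 in DN2, against 4.83 to 6.94, and S100a9, its partner, 8.16 and 8.61 in ETP and 7.88 in DN2 against 6.04 to 7.63. S100a4, a calcium-binding protein outside the lists, had 10.60 and 10.87 in ETP and 8.44 in DN2, against 5.62 to 8.92. Cd33, Mpo, Ctsg, Ms4a3 and Csf1r also rose, largely against DN3, and Wfdc17 and Csf3r fell. Of the 6 neutrophil and monocyte markers 4 rose (Mpo, S100a8, S100a9 and Csf1r), and their mean level ran from 6.84 to 8.23 on the ETP and DN2 arrays and from 6.13 to 8.21 on the others; the part of such cells in these results was not tested.

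Of 18 mast cell and basophil genes 4 rose (Cpa3, Mcpt1, Mcpt2 and Cd63) and none fell, against 2.3% and 1.33% of all genes. Their median difference was 0.04. Cpa3, a carboxypeptidase of mast cells, had 9.76 and 10.22 in ETP and 11.06 in DN2, with 9.94 and 10.28 in HSC, 4.82 to 5.58 in LMPP and CLP, and 8.83 and 8.95 in DN3, so it was off in the marrow lymphoid progenitors and high on both sides. Fcer1a and Ms4a2, chains of the mast cell IgE receptor, were below background on all 11 arrays. Mcpt8, a further marker, was above background on all 3 ETP and DN2 arrays, at 6.80, 7.32 and 6.72 against 4.94 to 7.79 elsewhere. Hdc had 5.84 and 5.92 in ETP, above background, and 5.60 in DN2, below it. Of 19 genes of dendritic cells and antigen presentation 4 rose, H2-Aa, H2-Ab1, H2-Eb1 and Cd74, all of the class II pathway, and 3 fell, Flt3, Siglech and Tcf4. Each of the 4 was high in ETP and low in DN2: Cd74, the invariant chain, had 6.63 and 6.72 in ETP and 5.26 in DN2, against 4.98 to 5.55. Zbtb46, Cd209a and Siglech, markers of dendritic cells, were below background on all 3 ETP and DN2 arrays, and Itgax was at 5.99, 5.95 and 5.82 there against 5.21 to 6.05. The macrophage markers Adgre1, C1qb, Marco and Mertk were below background on all 3 as well. C1qa, also a macrophage marker, was at 5.82, 5.84 and 5.97 on the same arrays, against 5.73 to 6.15 elsewhere. Of 19 macrophage and stromal genes 2 rose, Pdgfrb and Cd163, and none fell.

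**Figure D4:**
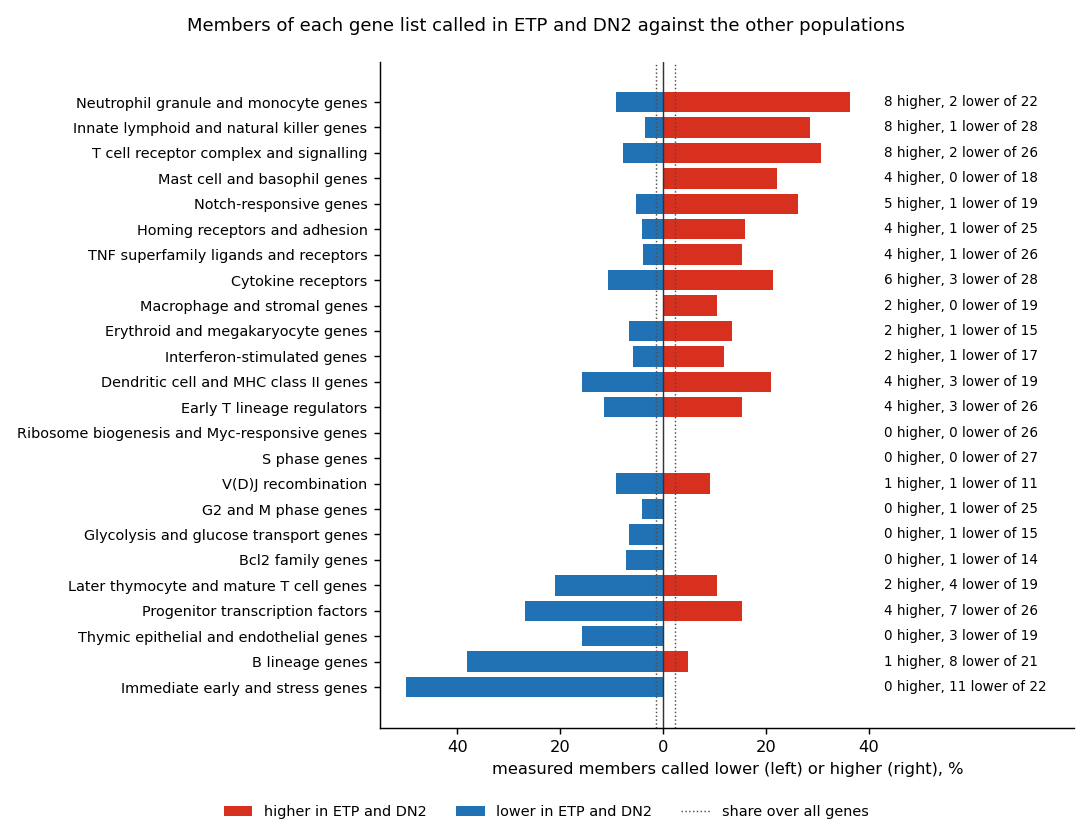
Share of the measured members of each of 24 gene lists called higher (red, right) or lower (blue, left) in ETP and DN2 against the other populations, in percent, with the counts beside the bars; the dotted lines are the shares over all genes, 2.3% higher and 1.33% lower. Immediate early genes have the highest share called lower (11 of 22), and neutrophil granule and monocyte genes the highest share called higher (8 of 22).

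Over all genes 2.3% were called higher and 1.33% lower. The lower genes were led by the immediate early and stress genes, which cells induce within minutes of a stimulus. Of 22 measured, 11 fell and none rose, with a median difference of -0.54 against -0.01 for all genes; between 9 and 12 fell with any 1 array left out. Jun, which pairs with Fos to form AP-1, had 6.67 and 7.08 in ETP and 6.83 in DN2, against 9.51 to 9.88 in marrow and 7.05 and 7.0 in DN3, so ETP and DN2 resembled DN3 and differed from marrow. Fos itself had 5.58 and 5.30 in ETP and 5.99 in DN2, against 6.93 to 7.77 in marrow and 5.72 and 5.46 in DN3. Against marrow the same 11 fell (median of the list -0.72), where 2.2% of all genes were called lower. Against DN3 2 rose and 1 fell (median 0.02), where 3.54% of all genes were called higher and 2.44% lower. Tissue and stage cannot be told apart in the comparison with marrow. Dusp1, Zfp36, Fosb, Btg2, Klf6, Egr1, Ier5, Nr4a2 and Ier2 were the others that fell against all populations.

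Of 21 B lineage genes 8 fell and 1, Cd72, rose, with a median difference of -0.35; 5 fell without ETP replicate 1. Ebf1, a regulator of B cell fate, had 4.44 and 4.26 in ETP and 4.40 in DN2, below background there, against 9.32 and 9.22 in CLP and 4.09 to 5.43 elsewhere. Only CLP was high, and the same held for Blnk, Vpreb2 and Vpreb3. Rag1, the recombinase, had 6.85 and 7.25 in ETP and 8.21 in DN2, against 5.84 to 7.43 in HSC and LMPP and 10.85 to 11.63 in CLP and DN3. ETP lay within the range of HSC and LMPP, and DN2 above it and below CLP and DN3. Of 11 V(D)J recombination genes Rag1 alone fell and Dntt alone rose. Dntt had 11.66 and 11.88 in ETP and 11.49 in DN2, below every LMPP, CLP and DN3 array (11.98 to 12.53). Only HSC was lower, at 8.32 and 7.88. Of 26 progenitor transcription factors 4 rose (Hhex, Nfe2, Id2 and Mycn) and 7 fell (Hlf, Meis1, Mecom, Cebpa, Tcf4, Nfil3 and Myc). Without the DN2 array 3 of them fell. For these lists too, the shares over all genes were 2.3% called higher and 1.33% called lower. Against marrow 12 of the progenitor factors were lower and 2 higher, where 2.2% of all genes were called lower and 3.08% higher. Against DN3 12 of these factors were higher and none lower, where 3.54% of all genes were called higher and 2.44% lower. Meis1, a homeobox factor of stem cells, had 7.78 and 7.94 in ETP but 5.75 in DN2, against 8.28 to 10.39 in marrow and 4.82 and 4.81 in DN3. Other large falls were of Wfdc17, Mpeg1, Plk2, Nucb2, Cd69, Gcnt2, Emcn and Pf4, by 1.46 to 2.41, and each was lower in DN3 than in its highest marrow population. Mpeg1, a pore-forming protein of phagocytes, had 6.06 and 6.04 in ETP and 5.52 in DN2, against 10.39 and 10.50 in CLP and 5.76 to 8.86 elsewhere.

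No gene was lowest in ETP and DN2 by the mirror image of the peak rule (0 of 19938 in limma, against 17 at an unadjusted p under 0.05). Sqor, a sulfide oxidoreductase of mitochondria, came nearest among genes with all 3 arrays below all 8. It had 5.35 and 5.48 in ETP and 5.54 in DN2, against 6.05 to 7.21, with DN3 next lowest, and missed the test (adjusted p = 0.197); without the DN2 array 1 gene passed. Bcl2, which protects cells from death, had 7.43 and 7.75 in ETP and 8.84 in DN2, against 8.66 to 9.43, so its DN2 array overlapped the others. It was 1.16 lower than the mean of the others (adjusted p = 0.000504), and the only 1 of 14 Bcl2 family genes called.

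**Figure D5:**
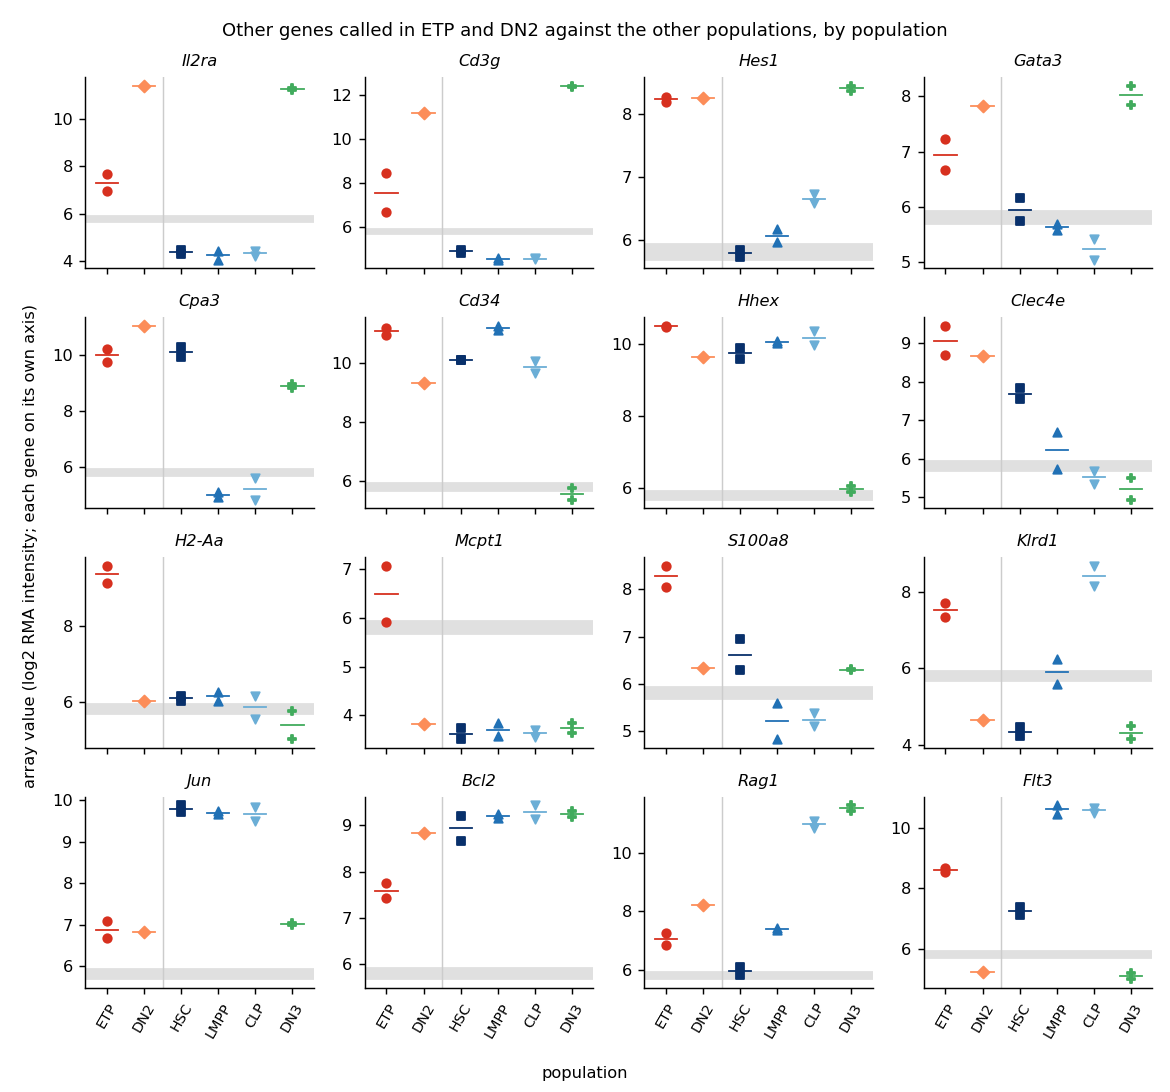
Values of 16 called genes outside the peak set on each array (log2 RMA intensity, y axis, each gene on its own axis) by population, with ETP and DN2 left of the grey line; bars are population means, with 2 arrays each and 1 for DN2, and the grey band is the background level. Il2ra, Cd3g, Hes1 and Gata3 are high in DN3 too, Cd34 and Hhex in marrow too, H2-Aa and Mcpt1 in ETP alone, and Jun is low in ETP, DN2 and DN3.

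Lists of cell division, ribosome biogenesis and glycolysis genes had 0 or 1 call each. Over all genes 3.63% were called, so such counts do not set these lists apart. Of 27 S phase genes and 26 ribosome biogenesis genes none was called (median differences -0.02 and -0.06), and of 25 genes of G2 and M phase 1, Mki67, fell by 0.41. Of 15 glycolysis genes 1, Pfkp, fell by 0.97. The remaining lists had calls in either direction, against 2.3% of all genes called higher and 1.33% called lower. Of 17 interferon-stimulated genes 2 rose (Ifitm1 and Ifitm3, both high in marrow too) and 1, Iigp1, fell. Of 19 later thymocyte genes 2 rose (Trat1 and Cd5) and 4 fell (Cd69, Cd28, Ctla4 and S1pr1), of 15 erythroid and megakaryocyte genes 2 rose (Car2 and Tfrc) and 1 fell (Pf4), and of 19 thymic epithelial and endothelial genes 3 fell (Emcn, Epcam and Krt18).

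The labels were checked against markers. Of 7 measured markers of early thymic progenitors 5 were called higher in ETP and DN2 (Kit, Cd44, Gata3, Hes1 and Thy1), and of 6 measured DN2 markers all 6. Gata3, Hes1, Thy1 and Cd3g were highest in DN3, and Il2ra was as high in DN3 as in DN2. Kit lay within the marrow range, as did Cd44 in ETP, and both were low in DN3. None of these called markers set ETP and DN2 apart from both marrow and DN3. Il2ra and Cd3g separated the DN2 array from ETP, and Flt3 was at background in DN2 and above it in both ETP arrays. Markers of the other stages were partly present. Of 6 measured DN3 markers 1, Il2ra, was called higher and 2, Rag1 and Cd3e, were called lower. Bcl11b of the same list was at 6.97 in DN2, against 6.16 and 6.13 in ETP, 7.26 and 7.11 in DN3 and 5.98 to 6.43 in marrow. How far the DN2 cells had gone towards commitment was not tested. Of 5 measured HSC markers Mecom, Slamf1 and Procr were below background on all 3 arrays, while Hlf and Gata2 were above it. The 4 LMPP markers averaged 8.44 to 9.89 on the 3 arrays and 7.59 to 10.46 on the others. Dntt and Cd34 were called higher and Flt3 lower, and Dntt was above HSC alone. The 5 CLP markers averaged 6.93 to 7.5 against 6.01 to 10.47, and 4 were called lower. Ebf1, Cd79a and Ms4a1 of B cells were below background on all 3 arrays and Pax5 was not. Cd4, Cd8a and Cd8b1 of later thymocytes were below background on all 3, and Cd5 was called higher.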

How the data were processed

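The study measured RNA of 6 sorted mouse populations on 11 arrays. Per the labels, the authors deposited log2 values made by RMA (background correction, quantile normalization and summary of probes); for the version, the chip definition and the build, the sources used here give nothing. Quantile normalization gives all arrays nearly the same distribution, so a shift of most genes together could not be seen. No raw intensities, detection calls or scan batches were used.

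Of 35556 probe sets 21789 had 1 gene symbol, 1621 several and 12146 none; those with 1 gave 19938 genes after the probe set of highest mean was kept for the 999 genes with several, and 21698 probe sets matched RefSeq. limma 3.58.1 in R 4.3.3 fitted 6 population means on all arrays. ETP and DN2 were the mean of 3 arrays, and the others the mean of 4 population means. Tests were two-sided with Benjamini-Hochberg adjustment over all genes at a threshold of 0.05, and "rose", "fell", "higher" and "lower" of a called gene refer to that fit. The limma fit was tested on simulated data, in which population means were equal except for shifts added in ETP and DN2. The other populations did not differ from each other there, so the test says nothing about calls that come from such differences. Tables and figures were made with Python 3.11.15, pandas 2.3.3 and matplotlib 3.10.9.

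Genes were named by rule: the peak and lowest genes, the 10 highest and 10 lowest called differences, and up to 4 called members of each list, leaving out predicted genes and olfactory receptors. Other called members of a list, and genes said to be so, were chosen after their values were seen. The members and lists were chosen with earlier results of these data known. Lists are described by counts and medians, with no test of their own. Alternatives covered normalization, dim genes, probe set choice, array weights, thresholds, grouping and each array left out. The number of arrays limits the precision.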

Additional observations from a re-analysis of the deposited data

Results flagged for a closer look

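In 3 of the 18 peak genes the DN2 array differed from ETP by the test of that difference in limma. Cd7 was 1.66 lower in DN2 than in ETP (a difference of -1.66, adjusted p = 0.0063), with 7.42 in DN2 against 8.81 and 9.33 in ETP. Fasl was 1.29 lower (-1.29, adjusted p = 0.00755), with 6.69 in DN2 against 7.94 and 8.03 in ETP. Serpinb6b was 1.24 lower (-1.24, adjusted p = 0.0229), with 8.64 in DN2 against 9.66 and 10.12 in ETP. In each of these genes DN2 was still above all 8 arrays of the other populations. DN2 had 1 array, so its own spread was not measured.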

How the results depend on the processing

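The 724 genes called between ETP and DN2 and the other populations became 336 at an adjusted p under 0.01, 132 at 2-fold or more, 24 in a fit of 2 groups and 22 with population as a random block, and 388 to 766 with 1 array left out. The 18 peak genes became 9 at an adjusted p under 0.01, 5 among genes with a mean at or above the median, which leaves out dim genes, 4 with 8 contrasts, and 7 to 37 with 1 array left out. The 0 lowest genes became 0 to 1 with 1 array left out. The 1053 genes called against marrow became 516 at the stricter threshold, 194 at 2-fold or more and 674 to 1119 with 1 array left out. The 1193 called against DN3 became 685, 481 and 598 to 1310 under the same changes, and 1843 with array weights. Apart from the stricter thresholds and fewer arrays or genes, the cause was not tested. With the replicate number as a block the counts were 665, 17, 1066 and 1097; correlations of same-numbered deviations were -0.258 to -0.088 for the 4 pairs with HSC and 0.07 to 0.283 for the other 6. Not every pair was over 0.1 and the labels name no shared batch, so a pairing was not established. Flt3 turned to 0.22 without the DN2 array, in a range of -1.49 to 0.22 with 1 array left out. Of 1912 values of 84 named genes under alternatives, 1698 kept direction and call, 210 lost the call (132 in the 2 fits of 2 groups), 3 gained it and 1 reversed. Of 388 peak tests 271 kept the call and 117 lost it. The peak call was kept least often in Pdgfrb and Zfp760, in 7 of 22 alternatives each. Next were Bpifc, Deptor and Scin (8 of 22 each) and Ubqlnl (8 of 21). For Olfm5, Fasl, Olfr648 and Olfr649 the call held in every alternative.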

Other observations

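A further 13767 probe sets had no single gene symbol and were left out of the comparisons. The same limma fit on them, added after the data were seen, called 73 in ETP and DN2 against the other populations, 58 of them higher. None of them peaked in ETP and DN2 at an adjusted p under 0.05, against 53 at an unadjusted p under 0.05, and none was lowest, against 12.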
